A study of Mus musculus with 4 samples.

Results

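The p53 pathway genes described here are Trp53, its relatives, regulators and binding partners, and known p53 target genes of arrest, death, metabolism and repair. They were taken by symbol from an expression table of 15429 genes, in which 39 of the 40 listed genes were found; Pmaip1 was not analysed here. Of these, 38 had a mean of at least 1 FPKM (sequenced fragments scaled by gene length and library size) over the 4 libraries and were tested, and Gdf15 lay below that level. The libraries hold polyadenylated RNA of mouse epiblast stem cells, which are pluripotent cells taken from the embryo after implantation. There were 2 libraries of cells given Tox4 esiRNA and 2 of cells given Luc esiRNA, which is the control. An esiRNA is a mixture of short interfering RNAs cut by an enzyme from a long double-stranded RNA. All cells were of the line OE7, which carries the Oct4-Gip transgene, and were used at passages 21 to 25. They were grown on fibronectin in medium with Fgf2 at 12 ng/ml and Activin A at 20 ng/ml and were transfected with 1000 ng of esiRNA and 2 µl of lipofectamine. The labels give no time from transfection to harvest and do not state if replicates are separate cultures. The p-values thus measure library-to-library spread that may be technical only, and they describe a single cell line.

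The transcription factor p53, the product of Trp53, is held at a low level by the ubiquitin ligase Mdm2 and accumulates after DNA damage and other stress. It then binds response elements made of a pair of half-sites and raises the transcription of genes that stop the cell cycle, start apoptosis, repair DNA or change metabolism. Mdm2 is itself a target, which closes a feedback loop. Mouse pluripotent cells are known to express Trp53 at a high level.

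Response elements are printed here because they are the letters through which p53 reads its targets. RefSeq promoters (build GRCm38.p6, 250 bases before to 50 after each annotated start) were found by symbol for 32 of the 39 members and for 10516 genes of the table. No promoter of a member held an exact p53 consensus full site without a spacer, that is, both half-sites side by side and no mismatch, and 1 of the 10516 genes did. With a spacer of up to 13 bases and no mismatch, Cdkn1a matched, against 7 genes (0.0666%) of the table. That match has a spacer of more than 1 base and is not the Cdkn1a sequence printed below. The searches that allow mismatches were added after these results were seen. With no spacer and up to 1 mismatch, none at the C and G of a half-site's core, Cdkn1a and Ccng1 matched, against 6 genes (0.0571%) of the table. With up to 2 mismatches and a spacer of 0 or 1 base, 4 members matched, against 89 genes (0.846%). The motif reads the same on both strands, so each match counts for both. The matches are written 5′ to 3′ on the strand of the gene, and capitals mark the 4 core bases of each half-site:
Cdkn1a: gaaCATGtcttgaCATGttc
Ccng1: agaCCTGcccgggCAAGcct
Bax: aggCAAGctttgaaCTTGcgg
Trp73: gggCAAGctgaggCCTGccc
The Cdkn1a match lies at chr17:29090928-29090947 on the plus strand, with its first base at position -51 from the more upstream of 2 RefSeq starts. The Ccng1 match is at chr11:40755462-40755481 and the Bax match at chr7:45467079-45467099, both on the minus strand, with first bases at -195 for Ccng1 and -201 for Bax. The Trp73 match is at chr4:154097220-154097239 on the minus strand, with its first base at -66 from the more downstream of 2 RefSeq starts. Cdkn1a and Ccng1 carry 1 mismatch each, and Bax and Trp73 carry 2. A match is a description of the letters and does not show binding, and elements farther from a start were not searched.

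The knockdown was checked first. Tox4, which encodes a chromatin-associated HMG-box protein, stood at 8.65 and 8.89 FPKM in Tox4 replicates 1 and 2, against 16.7 and 17.5 FPKM in Luc replicates 1 and 2. Its group means had a ratio of 0.512 (log2 fold change -0.89, SE 0.05, limma adjusted p = 0.00228). Exons of Tox4 share 1128 bases with Rab2b and Mettl3 on the other strand. Reads of these bases cannot be separated if strand was not used in counting. Worked back from FPKM, the reads summed to 14739230 and 12778046 in Tox4 replicates 1 and 2 and to 19008811 and 14998197 in Luc replicates 1 and 2. The share of reads on mitochondrial genes was 1.05% and 1.05% in the Tox4 libraries and 0.864% and 0.840% in the Luc libraries. The markers of epiblast stem cells were present, all 8 of 8 in every library, with summed levels of 1571 and 1613 FPKM in the Tox4 libraries and 1683 and 1652 FPKM in the Luc libraries. Of the 6 neuroectoderm markers 5 were in the table, none at 0, with sums of 91.2 and 91.2 FPKM in the Tox4 libraries and 77.7 and 76.5 FPKM in the Luc libraries. The 7 fibroblast markers summed to 18.7 and 19.5 FPKM in the Tox4 libraries and 20.7 and 20.7 FPKM in the Luc libraries. The 4 extraembryonic markers in the table, of 7 listed, summed to 42.4 and 46.5 FPKM in the Tox4 libraries and 57.2 and 60.0 FPKM in the Luc libraries, and no marker of either list was at 0. Of the 4 neuroectoderm markers tested, Sox1, Fabp7 and Ncam1 were higher in the Tox4 libraries (ratios 2.39, 1.93 and 1.29), whereas Nes, at 49.9 and 49.8 FPKM in the Tox4 libraries and 52.7 and 51.5 FPKM in the Luc libraries, made up most of the sum and did not pass. Ncam1 lost its call without Luc replicate 1, without Luc replicate 2 or without Tox4 replicate 1 (highest adjusted p 0.155). The epiblast, fibroblast and extraembryonic sums were lower in both Tox4 libraries than in both Luc libraries. Of the 8 epiblast markers tested, Tdgf1 was lower (ratio 0.822), Sox2 was higher (1.18) and 6 did not pass, among them Pou5f1 (1.02) and Nanog (0.997). The 2 extraembryonic markers tested, Krt8 and Krt18, were lower (0.802 and 0.722), and none of the 4 fibroblast markers tested passed. In limma, at an adjusted p under 0.05, 1.89% of all genes tested were higher and 2.62% lower. Tdgf1, Sox2, Krt8 and Krt18 lost their calls without Luc replicate 1 or without Luc replicate 2. Sox2 and Krt8 also lost theirs without Tox4 replicate 1. The Tox4 libraries also had fewer reads and a higher mitochondrial share; the part of these differences in the results that follow was not tested. In bulk RNA, fewer cells of a type and less RNA per cell cannot be told apart.

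After Tox4 knockdown, 14 of the 38 p53 pathway genes tested rose and none fell (limma on log2(FPKM + 1), adjusted p under 0.05 over all 12403 genes tested). Among all genes tested 1.89% rose and 2.62% fell by the same rule. The members were chosen with earlier results of these data known. Setting them beside all genes is therefore a description and not a test of the list. At an unadjusted p under 0.05, 24 members were higher and 0 lower, against 10% and 11.5% of all genes. In limma-voom on the reads worked back, 21 members rose and 0 fell, against 6.3% and 5.84% of all genes. The median log2 fold change of the 38 members was 0.18, with 31 above 0, whereas over all genes tested the median was -0.0034 and 48.8% lay above 0. Both Tox4 libraries lay above both Luc libraries for 26 members (25.3% of all genes), both lay below for 4 (26.7% of all genes), and for 8 the groups overlapped. The rises were modest, with ratios of group means from 1.19 for Ei24 to 1.68 for Rprm.

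**Figure D1:**
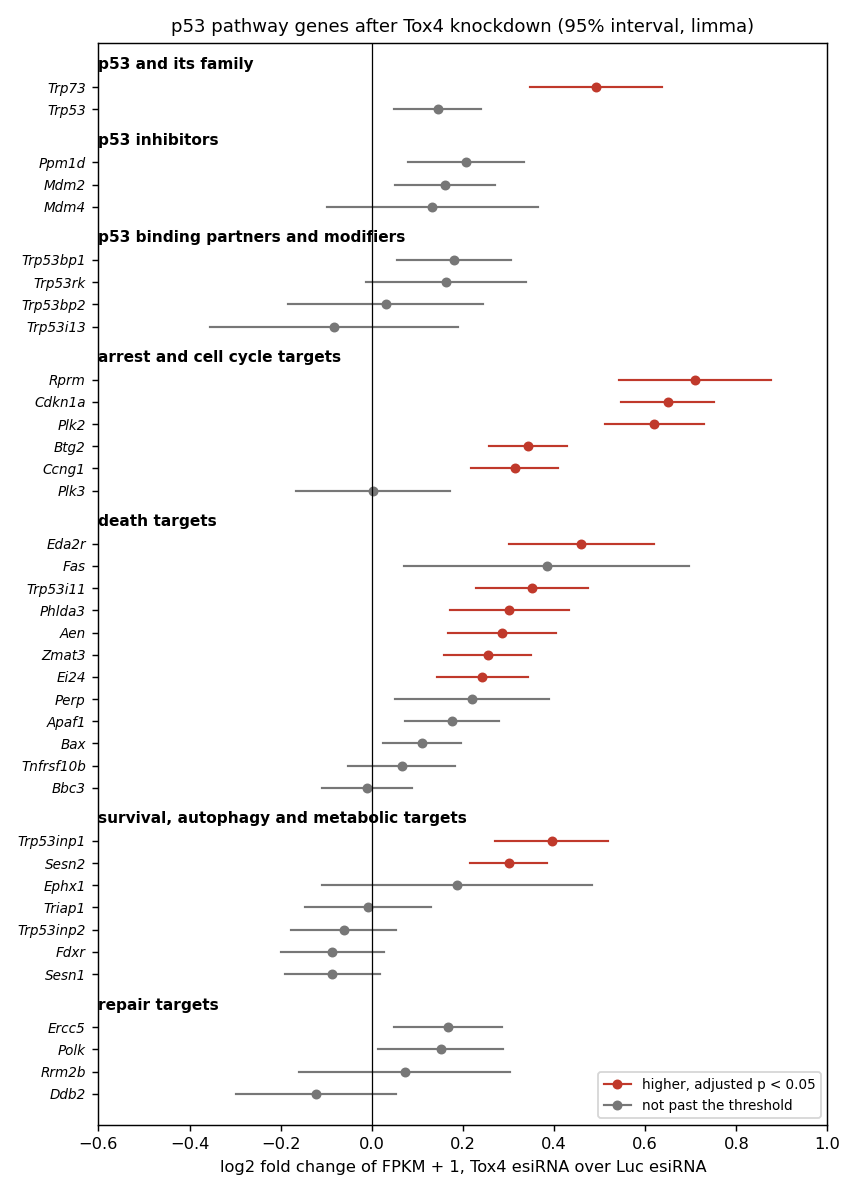
Log2 fold change of FPKM + 1 (horizontal axis), Tox4 esiRNA over Luc esiRNA, with its 95% interval from limma, for the 38 members tested, grouped by role and ordered within each group. Red marks the 14 members past the threshold, all on the right of 0, with Rprm at 0.71, Cdkn1a at 0.65 and Plk2 at 0.62 at the upper end and Ddb2 at -0.12 at the lower end.

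Arrest and cell cycle targets held the largest changes, with 5 of 6 tested genes higher, none lower, and a median log2 fold change of 0.48. Of all genes tested, 1.89% were higher and 2.62% lower. Cdkn1a (ENSMUSG00000023067, chromosome 17, 29090976 to 29100727, plus strand, GRCm38) encodes p21, the inhibitor of cyclin-dependent kinases that carries out much of the p53 arrest. Its levels were 82.8 and 87.6 FPKM in the Tox4 libraries and 54.8 and 53.1 FPKM in the Luc libraries, on 2756 and 2528 reads against 2352 and 1799. The groups lay far apart relative to their spread, at 85.2 ± 3.41 FPKM with Tox4 esiRNA and 54.0 ± 1.19 FPKM with Luc esiRNA (SD, n = 2 each) (log2 fold change 0.65, SE 0.04, adjusted p = 0.00265). Exons of Cdkn1a share 273 bases with an antisense gene, AC167363.2, whose reads cannot be separated if strand was not used in counting. Rprm (ENSMUSG00000075334, chromosome 2, 54084093 to 54085552, minus strand) encodes Reprimo, a glycoprotein linked to arrest in G2. It was at 25.3 and 23.7 FPKM in the Tox4 libraries, against 15.5 and 13.7 FPKM in the Luc libraries. Its log2 fold change of 0.71 (SE 0.07, adjusted p = 0.00875) ranked 58th of all 12403 genes from the top, just ahead of Cdkn1a at rank 70 and Plk2 at rank 77.

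Plk2 (ENSMUSG00000021701, chromosome 13, 110395046 to 110400844, plus strand), a polo-like kinase of centriole duplication, was at 26.2 and 25.6 FPKM in the Tox4 libraries, against 16.2 and 16.9 FPKM in the Luc libraries. That is a ratio of 1.57 (log2 fold change 0.62, SE 0.04, adjusted p = 0.00337). Its relative Plk3, a stress-responsive kinase, was at 5.001 and 4.85 FPKM in the Tox4 libraries and 4.99 and 4.84 FPKM in the Luc libraries. The Plk3 interval, -0.17 to 0.17, lay wholly below that of Plk2, 0.51 to 0.73, and their difference was not tested. Btg2, an antiproliferative cofactor of mRNA deadenylation, was at 107 and 109 FPKM with Tox4 esiRNA and 86.5 and 83.5 FPKM with Luc esiRNA (log2 fold change 0.34, adjusted p = 0.0103). Ccng1, which encodes cyclin G1, a partner of a phosphatase that acts on Mdm2, was at 176 and 167 FPKM with Tox4 esiRNA and 136 and 139 FPKM with Luc esiRNA (0.31, adjusted p = 0.0169). Neither gene's groups overlapped, and the threshold chose both genes partly for that separation. Gdf15, a secreted stress cytokine often read as a sign of p53 or Atf4 activity, was near the floor of the table, at 0.767 and 0.804 FPKM in the Tox4 libraries and 0.703 and 0.822 FPKM in the Luc libraries, on 10 to 13 reads, and was not tested. Cdkn1a, Rprm and Plk2 stayed past the threshold with each library left out (highest adjusted p 0.0279, 0.0383 and 0.0329). Btg2 and Ccng1 did not without Luc replicate 1 or without Luc replicate 2 (highest adjusted p 0.0829 and 0.117).

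**Figure D2:**
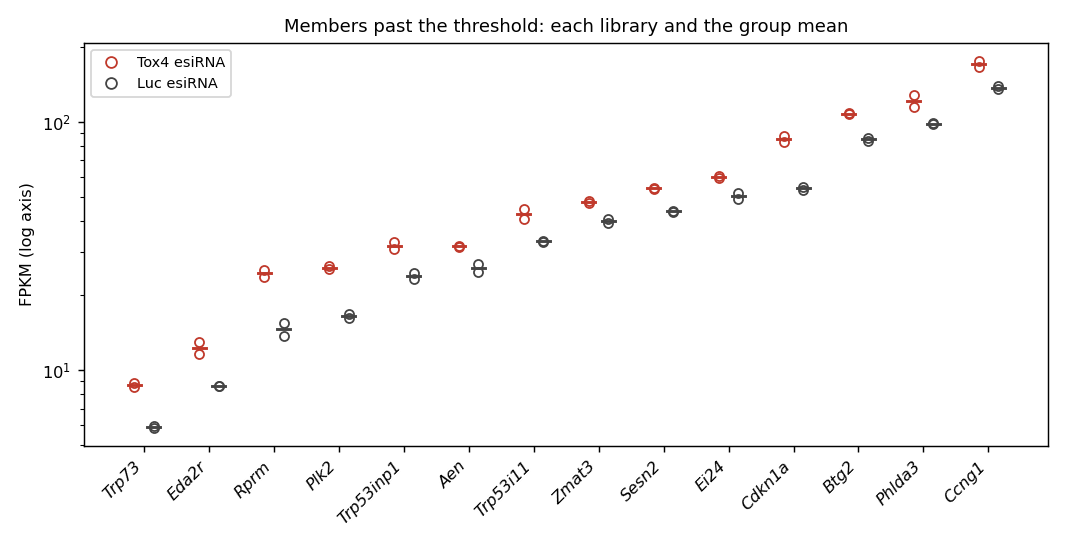
FPKM (log axis) of the 14 members past the threshold in each library (circles) with the group mean (bar), Tox4 esiRNA in red left of Luc esiRNA in grey, ordered by level. The Tox4 libraries lie above the Luc libraries for every gene drawn, at levels from 8.57 FPKM for Trp73 to 176 FPKM for Ccng1, and the threshold chose these genes partly for that separation.

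Among death-related targets 6 of 12 tested genes were higher, none lower and 6 not past the threshold, against 1.89% of all genes higher and 2.62% lower. The log2 fold change lay above 0 for 11 of the 12, with a median of 0.25. At an unadjusted p under 0.05, 10 were higher and 0 lower, against 10% and 11.5% of all genes. In limma-voom 8 of the 12 rose and 0 fell, against 6.3% and 5.84% of all genes. Eda2r, a death receptor of the tumour necrosis factor receptor family, was at 12.9 and 11.6 FPKM in the Tox4 libraries, against 8.63 and 8.65 FPKM in the Luc libraries (log2 fold change 0.46, SE 0.07, adjusted p = 0.0231). Trp53i11, a membrane protein gene first named as p53-induced, was at 40.7 and 44.4 FPKM with Tox4 esiRNA and 33.0 and 33.3 FPKM with Luc esiRNA (0.35, adjusted p = 0.0242). Phlda3, a repressor of the survival kinase Akt, was at 115 and 128 FPKM in the Tox4 libraries and 98.0 and 98.6 FPKM in the Luc libraries (0.30, adjusted p = 0.0391). The Tox4 libraries differed from each other here by more than the Luc libraries did. The groups did not overlap, and the threshold chose the gene partly for that separation. Aen, a nuclease that enhances apoptosis, was at 31.8 and 31.4 FPKM in the Tox4 libraries and 24.8 and 26.8 FPKM in the Luc libraries (0.29, adjusted p = 0.0354). Zmat3, a zinc finger protein that binds RNA, was at 48.1 and 47.3 FPKM with Tox4 esiRNA and 39.0 and 40.7 FPKM with Luc esiRNA (0.25, adjusted p = 0.0290). The changes of Aen and Zmat3 were among the smallest that passed. Ei24, a membrane protein of the endoplasmic reticulum linked to autophagy, was at 59.2 and 60.5 FPKM with Tox4 esiRNA and 51.8 and 49.1 FPKM with Luc esiRNA (0.24, adjusted p = 0.0352), with 324 exonic bases shared with antisense Gm26787. Without Luc replicate 1 or without Luc replicate 2 all of these genes lost their calls, with adjusted p of at most 0.127 for Eda2r, 0.132 for Trp53i11, 0.178 for Phlda3, 0.173 for Aen, 0.166 for Zmat3 and 0.189 for Ei24. Aen and Ei24 also lost theirs without either Tox4 library, and Zmat3 without Tox4 replicate 1.

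The other 6 death-related genes tested did not pass in limma, and of these Apaf1 and Perp passed in limma-voom. Bbc3, which encodes the BH3-only killer Puma, was at 42.5 and 44.7 FPKM in the Tox4 libraries, against 43.5 and 44.4 FPKM in the Luc libraries. Its groups overlapped and its interval ran from -0.11 to 0.09 (log2 fold change -0.01, adjusted p = 0.913). Bax, the pore-forming effector of Bcl2-type death, had the highest level of all members, at 294 and 303 FPKM with Tox4 esiRNA and 279.9 and 273 FPKM with Luc esiRNA. Its groups did not overlap, and the log2 fold change of 0.11 had an interval of 0.02 to 0.19 without passing (adjusted p = 0.143). Apaf1, the scaffold of the apoptosome, was at 0.18 (0.07 to 0.28, adjusted p = 0.0762, and 0.00755 in limma-voom) and Perp, a desmosomal protein of apoptosis and adhesion, at 0.22 (0.05 to 0.39, adjusted p = 0.139, and 0.0252 in limma-voom). Among the death receptors, Fas was at 3.33 and 2.94 FPKM in the Tox4 libraries and 1.86 and 2.50 FPKM in the Luc libraries, on 68 and 52 reads against 49 and 52. Its log2 fold change of 0.38 was as large as that of several genes that passed, with a wide interval of 0.07 to 0.70 (adjusted p = 0.157). Tnfrsf10b, the mouse TRAIL receptor, was at 0.07 (-0.05 to 0.18, adjusted p = 0.495), with overlapping groups.

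Among the 7 targets in metabolism, autophagy and survival 2 genes rose and none fell, against 1.89% and 2.62% of all genes. The other 5 stayed short of the threshold, and the median log2 fold change of the 7 was -0.0088. Each of the 2 has a close relative among the members that did not pass. Sesn2, a sestrin that senses leucine and restrains mTORC1, was at 54.1 and 53.8 FPKM in the Tox4 libraries and 43.4 and 43.9 FPKM in the Luc libraries (0.30, SE 0.03, adjusted p = 0.0139). Its relative Sesn1 was at 21.5 and 20.7 FPKM with Tox4 esiRNA and 22.4 and 22.6 FPKM with Luc esiRNA (-0.09, interval -0.19 to 0.02). Trp53inp1, which links p53 to autophagy and cell death, was at 32.7 and 30.8 FPKM in the Tox4 libraries and 23.2 and 24.6 FPKM in the Luc libraries (0.39, SE 0.05, adjusted p = 0.0179). The related Trp53inp2 was at 13.1 and 12.9 FPKM with Tox4 esiRNA and 13.5 and 13.7 FPKM with Luc esiRNA (-0.06, interval -0.18 to 0.05). In each pair the intervals of the relatives did not overlap, and the difference between relatives was not tested. Sesn2 and Trp53inp1 lost their calls without Luc replicate 1 or without Luc replicate 2 (highest adjusted p 0.101 and 0.104). Fdxr, the mitochondrial ferredoxin reductase, was at -0.09, Triap1, a mitochondrial lipid-transfer partner, at -0.01, and Ephx1, the microsomal epoxide hydrolase, at 0.19 with an interval of -0.11 to 0.48.

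Repair targets held no calls in limma among 4 tested genes, against 1.89% of all genes higher and 2.62% lower. At an unadjusted p under 0.05, 2 of the 4 were higher and 0 lower, against 10% and 11.5% of all genes. Ddb2, the damage sensor of nucleotide excision repair, was at 9.26 and 8.14 FPKM with Tox4 esiRNA and 9.64 and 9.44 FPKM with Luc esiRNA (log2 fold change -0.12, interval -0.30 to 0.05). It shares 652 exonic bases with Acp2 on the other strand. Ercc5, the excision repair endonuclease XPG, was at 0.17 (0.05 to 0.29, adjusted p = 0.119), and the translesion polymerase gene Polk at 0.15 (0.01 to 0.29, adjusted p = 0.198). Rrm2b, the p53-inducible subunit of ribonucleotide reductase, was at 2.28 and 2.25 FPKM in the Tox4 libraries and 2.07 and 2.14 FPKM in the Luc libraries (0.07, adjusted p = 0.719). Its exons share 734 bases with antisense Gm49085. Of the 4 repair targets Ercc5 rose in limma-voom (adjusted p = 0.0321) and 0 fell, against 6.3% and 5.84% of all genes.

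Trp53 itself did not pass the threshold. It was at 59.3 and 61.9 FPKM in the Tox4 libraries, against 55.4 and 54.0 FPKM in the Luc libraries. The groups did not overlap, and the log2 fold change of 0.14 (SE 0.04, interval 0.05 to 0.24) had an adjusted p of 0.101 in limma and 0.0460 in limma-voom. Only transcripts were measured, so these values say nothing of the level or the modification of the p53 protein. Trp73 (ENSMUSG00000029026, chromosome 4, 154056253 to 154140208, minus strand), the p53 relative that binds the same type of element, rose. It was at 8.57 and 8.85 FPKM with Tox4 esiRNA and 5.86 and 5.95 FPKM with Luc esiRNA, levels well below those of Trp53, with a ratio of 1.48 (log2 fold change 0.49, SE 0.06, adjusted p = 0.0146). It shares 280 exonic bases with the antisense gene Trp73os. Without Luc replicate 1 or without Luc replicate 2 it did not pass (highest adjusted p 0.104).

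The inhibitors of p53 lay slightly above 0 and none passed in limma, against 1.89% of all genes higher and 2.62% lower. At an unadjusted p under 0.05, 2 of the 3 were higher and 0 lower, against 10% and 11.5% of all genes. In limma-voom 2 of the 3 rose and 0 fell, against 6.3% and 5.84% of all genes. Mdm2, the ligase and feedback target, was at 32.5 and 30.8 FPKM in the Tox4 libraries and 28.6 and 27.7 FPKM in the Luc libraries (log2 fold change 0.16, interval 0.05 to 0.27, adjusted p = 0.108, and 0.0174 in limma-voom). Ppm1d, the phosphatase Wip1 that switches the damage response off, was at 15.9 and 15.7 FPKM with Tox4 esiRNA and 14.03 and 13.1 FPKM with Luc esiRNA (0.21, adjusted p = 0.0864, and 0.0203 in limma-voom). Mdm4, the partner of Mdm2 that masks the p53 activation domain, was at 30.2 and 25.2 FPKM in the Tox4 libraries and 23.6 and 26.5 FPKM in the Luc libraries. Its groups overlapped and its Tox4 replicates spread most, in FPKM, of the inhibitors (0.13, interval -0.10 to 0.36). Among the binding partners and modifiers, Trp53bp1, the 53BP1 protein of double-strand break repair, was at 0.18 (adjusted p = 0.114, and 0.00440 in limma-voom), with 2130 exonic bases shared with Tubgcp4 on the other strand. Trp53bp2, a cofactor that directs p53 to death genes, was at 0.03, the p53-related kinase gene Trp53rk at 0.16 and Trp53i13 at -0.08, and none of them passed in either test.

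Leaving out single libraries changed the number of calls. In place of 14, the members past the threshold numbered 11 without Tox4 replicate 1 and 12 without Tox4 replicate 2, and 3 without Luc replicate 1 or without Luc replicate 2, where Cdkn1a, Plk2 and Rprm remained. The background fell as well, with 1.29% and 1.23% of all genes called higher without Tox4 replicates 1 and 2, and 0.265% and 0.226% without Luc replicates 1 and 2. Such a fit assumes that the lone library varies like the other group. Over these fits the log2 fold change lay between 0.61 and 0.69 for Cdkn1a and between 0.39 and 0.53 for Eda2r. Phlda3 ranged more widely for its size, at 0.38 without Tox4 replicate 1 and 0.23 without Tox4 replicate 2. Without a trend of variance on level, 3 members were past the threshold, Cdkn1a, Plk2 and Trp73, against 0.266% of all genes.

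**Figure D3:**
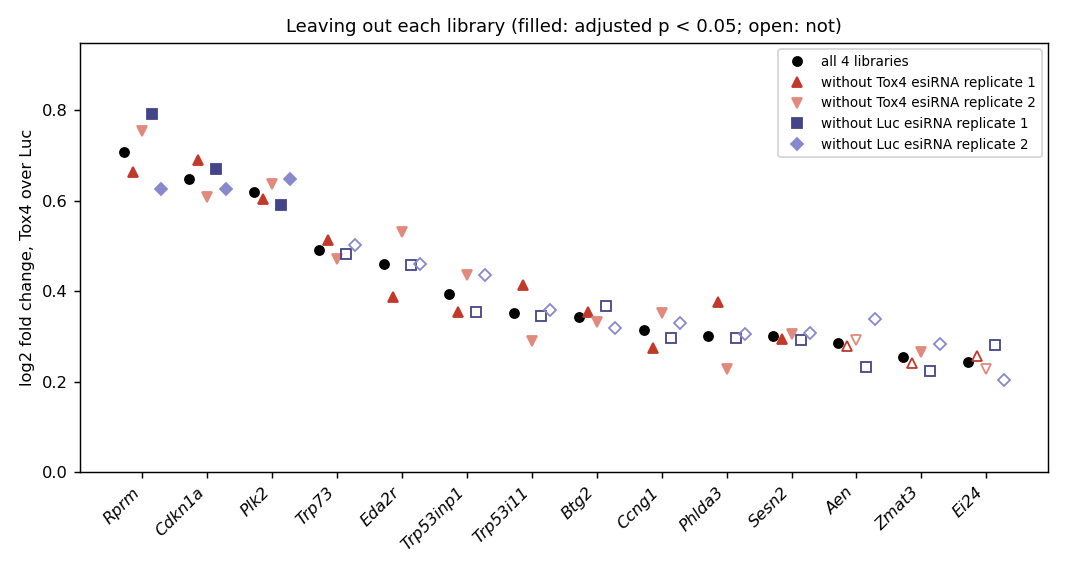
Log2 fold change (vertical axis), Tox4 esiRNA over Luc esiRNA, of the 14 members past the threshold with all 4 libraries and with each library left out; filled symbols are past an adjusted p of 0.05 and open ones are not. All values lie above 0, and without a Luc library only Rprm, Cdkn1a and Plk2 remain filled.

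Further p53 targets outside the members moved in both directions. Of 29 considered, all 29 were in the table and 27 were tested. In limma 6 rose, 3 fell and 18 did not pass, against 1.89% of all genes higher and 2.62% lower. The median log2 fold change of the 27 was 0.02. In limma-voom 7 rose and 4 fell, against 6.3% and 5.84% of all genes. Ak1, the cytosolic adenylate kinase, was at 65.1 and 68.8 FPKM in the Tox4 libraries, against 44.1 and 44.1 FPKM in the Luc libraries (log2 fold change 0.59, SE 0.04, adjusted p = 0.00311). Pidd1, listed under its older symbol Lrdd, encodes a p53-induced death domain protein and was at 19.8 and 18.8 FPKM with Tox4 esiRNA and 13.7 and 13.3 FPKM with Luc esiRNA (0.48, adjusted p = 0.0102). In the other direction, Sfn, the 14-3-3 sigma gene that is a p53 target of G2 arrest in human cells, was at 8.39 and 9.17 FPKM with Tox4 esiRNA and 21.1 and 23.1 FPKM with Luc esiRNA (-1.24, SE 0.07, adjusted p = 0.00215). Thbs1, which encodes the matrix glycoprotein thrombospondin 1, was at 11.5 and 10.998 FPKM in the Tox4 libraries and 15.3 and 15.4 FPKM in the Luc libraries (-0.41, adjusted p = 0.0146), with 208 exonic bases shared with antisense Gm29233. Ptp4a3, Gtse1, Psrc1 and Slc19a2 also rose (0.37, 0.36, 0.30 and 0.29) and Steap3 also fell (-0.40); these 5 were named after their values were seen. Gadd45a, a damage-response gene likewise chosen after its value was seen, was at -0.32 without passing in limma (adjusted p = 0.0614), and it fell in limma-voom (adjusted p = 0.00713). Ak1 and Sfn kept their calls with each library left out, while without Luc replicate 1 or without Luc replicate 2 Pidd1 and Thbs1 did not (highest adjusted p 0.0800 and 0.110). Ptp4a3, Gtse1, Psrc1, Slc19a2 and Steap3 also lost their calls without a Luc library (highest adjusted p 0.0825 for Ptp4a3, 0.0791 for Gtse1, 0.103 for Psrc1, 0.183 for Slc19a2 and 0.173 for Steap3), Slc19a2 without either Tox4 library too, and Steap3 without Tox4 replicate 1.

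**Figure D4:**
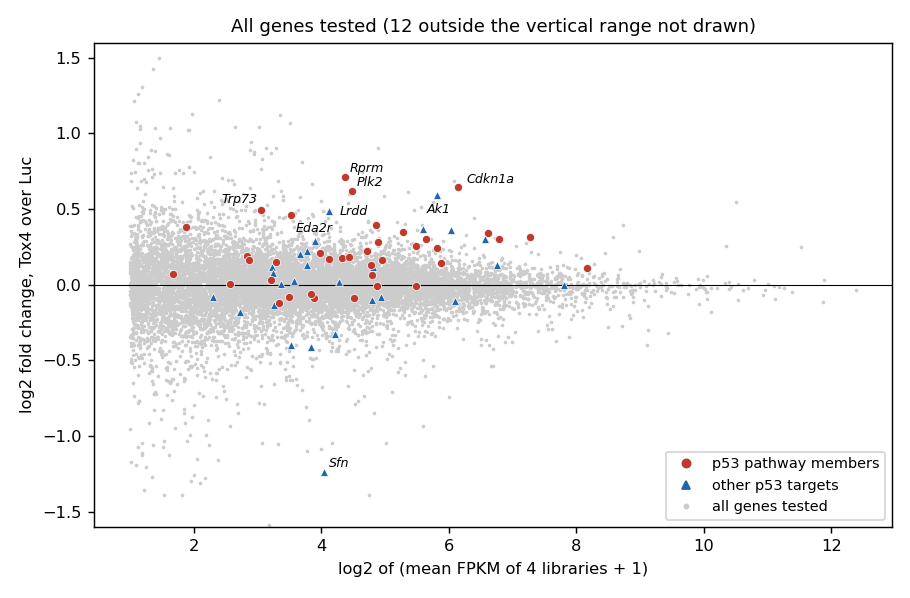
Log2 fold change, Tox4 esiRNA over Luc esiRNA (vertical axis), against the log2 of the mean FPKM + 1 (horizontal axis) for the 12403 genes tested (grey; 12 lie outside the range drawn), with the members as red circles and the other p53 targets as blue triangles. The members lie mostly above 0, up to 0.71 for Rprm, while the other targets spread from -1.24 for Sfn to 0.59 for Ak1.

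The cell cycle genes that p53 represses by way of p21 and the DREAM complex held no calls in limma. None of 16 tested genes passed in either direction, against 1.89% of all genes higher and 2.62% lower. The median log2 fold change of the 16 was 0.00097. At an unadjusted p under 0.05, 1 was higher and 3 were lower, against 10% and 11.5% of all genes. In limma-voom 0 rose and 2 fell, against 6.3% and 5.84% of all genes. The 2 with the largest changes were Bub1, a kinase of the spindle checkpoint, and Ccnb2, a mitotic cyclin. Bub1 was at 78.6 and 75.9 FPKM in the Tox4 libraries, against 89.4 and 85.2 FPKM in the Luc libraries (-0.17, interval -0.27 to -0.08, adjusted p = 0.0717). Ccnb2 was at 119 and 114 FPKM with Tox4 esiRNA and 132 and 126 FPKM with Luc esiRNA (-0.14, interval -0.24 to -0.04, adjusted p = 0.110). Of 22 other p53 regulators, 21 were in the table and tested. In limma none rose and 1 fell, against 1.89% and 2.62% of all genes. At an unadjusted p under 0.05, 0 were higher and 3 lower, against 10% and 11.5% of all genes. In limma-voom 0 rose and 3 fell, against 6.3% and 5.84% of all genes. Kat5, the Tip60 acetyltransferase, fell in limma. It was at 29.4 and 28.6 FPKM with Tox4 esiRNA and 33.2 and 34.3 FPKM with Luc esiRNA (-0.21, adjusted p = 0.0470), and it lost its call with any of the 4 libraries left out (highest adjusted p 0.232). Its exons share 426 bases with Rnaseh2c on the other strand.

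**Figure D5:**
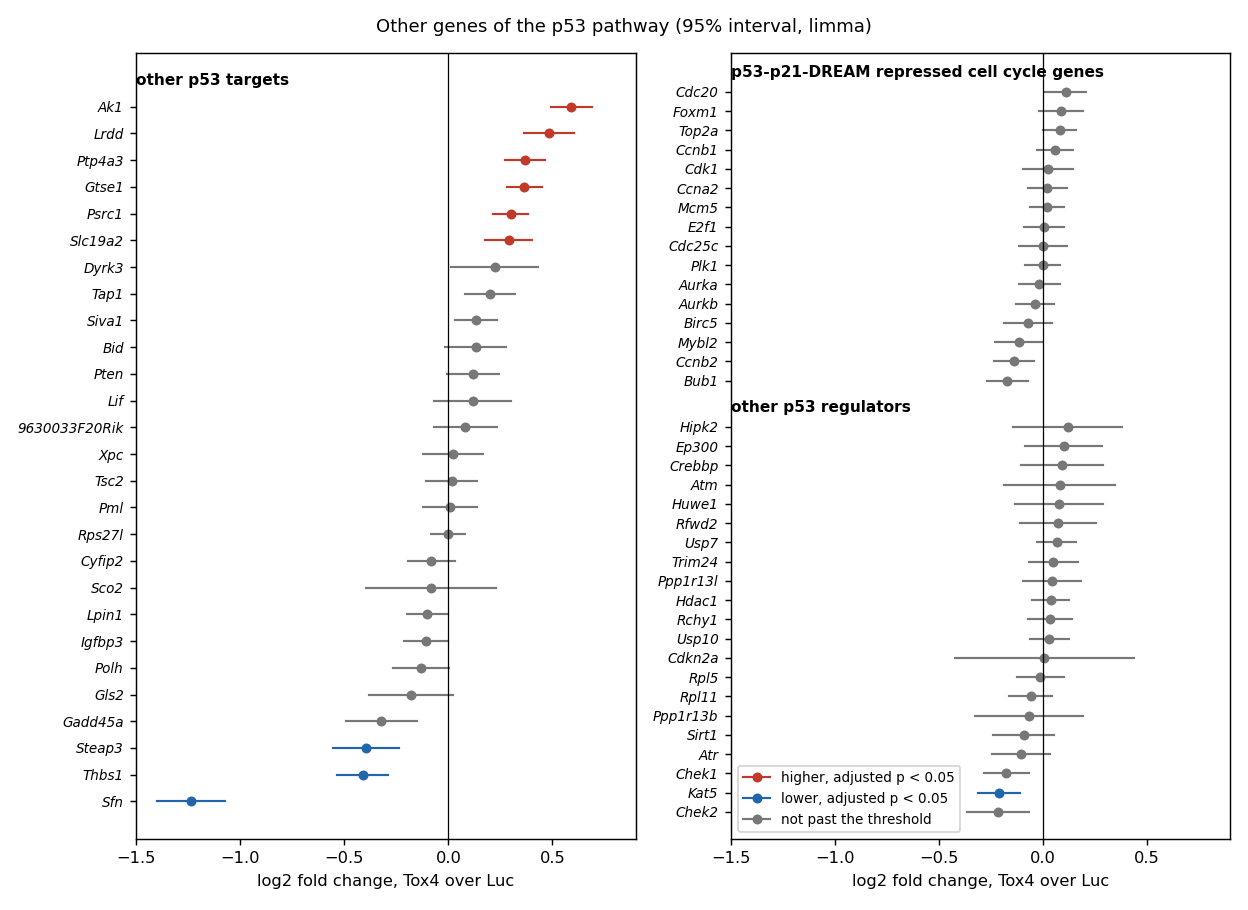
Log2 fold change of FPKM + 1 (horizontal axes), Tox4 esiRNA over Luc esiRNA, with 95% intervals from limma, for the other p53 targets (left) and for DREAM-repressed cell cycle genes and other p53 regulators (right); red marks genes that rose, blue genes that fell and grey those not past the threshold. The targets run from -1.24 for Sfn to 0.59 for Ak1, whereas the cell cycle genes stay between -0.17 for Bub1 and 0.11 for Cdc20.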

How the data were processed

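Poly(A) RNA was sequenced in 4 libraries, grouped by title. The authors deposited FPKM values for 15429 genes, 1 column per library; the separate library files held identical values. Per the submitters' processing notes, CASAVA 1.8, STAR 2.3.0e and GRCm38.p1 were used; counting program, annotation and strand use were not given in the sources used here. Genes averaging 1 FPKM or more across all libraries were tested on log2(FPKM + 1) with limma 3.58.1 in R 4.3.3 (two-sided, variance trend, no covariate, Benjamini-Hochberg over 12403 genes, threshold 0.05). Fold changes on this scale understate the change of low genes. Reads were simulated in 5 runs, each with 200 changed genes above a minimum number of reads and a common dispersion of 0.000722. On simulated reads for 12403 genes the fit recovered 40.3% of 1.3-fold, 64.2% of 1.5-fold and 91.2% of 2-fold changes, and 10.8% of its calls were false. That false share is above the 0.05 that the threshold aims at, so calls just under 0.05 are less secure than their adjusted p. These shares hold for the simulated settings, and the false share among the real calls was not measured.

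Reads were worked back as the smallest whole numbers that give the FPKM values with a whole gene length (100% of values, relative tolerance 1e-09). True reads may be a multiple of these, which affects the reads of Trp53rk most visibly. Replicates differed by more than sampling noise (chi-square per degree of freedom 1.92 for Tox4 and 1.62 for Luc). Coordinates and exon overlaps come from GENCODE M21 (GRCm38). The response element search was planned for wider windows around each start; it used RefSeq promoters because no genome was used here.

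The members and gene lists were chosen with earlier results of these data known. All members present are named; of each other pathway list, the rule took up to 4 genes past the threshold with the largest absolute change, or 2 where none passed. Symbols absent from the table were looked up by Ensembl identifier, which found Pidd1, Tigar and Cop1 under older symbols. A planned gene of the further p53 targets is not reported here and was left out of that list's counts.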

Additional observations from a re-analysis of the deposited data

How the results depend on the processing

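All genes past the threshold numbered 234 higher and 325 lower. They numbered 146 and 202 with low genes kept, 33 and 45 without the variance trend, 781 and 724 in limma-voom, and 365 and 476 with a minimum mean of 5 FPKM. With that minimum, 1 DREAM-repressed cell cycle gene and 4 further p53 targets fell, in place of 0 and 3. With each library left out in turn they ranged from 28 to 161 higher and from 38 to 323 lower. The 14 members became 3 without the trend, 11 with low genes kept (Aen, Ei24 and Phlda3 were lost), 21 in limma-voom, and 3 to 12 with a library left out; pseudocounts of 0.1 and 0.5, the minimum of 5 FPKM, median centring and scaling by trimmed means kept the same 14. No member fell in any of these fits. Members with a p53 full site in a promoter numbered 0 with no mismatch and no spacer, and 1 with no mismatch and a spacer of up to 13 bases. In searches chosen after seeing the data, they numbered 2 with up to 1 mismatch and no spacer. They numbered 4 with up to 2 mismatches and a spacer of 0 or 1 base. With the replicate number as a block, 14 members, 222 higher and 334 lower genes passed; Kat5 was lost and Gadd45a passed. The numbers do not pair the libraries by any label, and the differences between replicates 2 and 1 had a correlation of -0.04 over genes between the groups. The causes of these changes were not tested. Count tests other than limma-voom and wider response element windows were not run. With 2 libraries a group, intervals of low genes such as Fas are wide.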
